A study of Mus musculus with 63 samples.

Results

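The 42 genes described here encode parts and regulators of the cell division cycle, and their transcripts mark dividing cells. They were chosen by symbol and not by a rule on their values, from the 23393 genes measured in single mouse bone marrow progenitors. Earlier results of these data were known when they were chosen. By role they comprise 20 mitotic genes, 14 S phase genes, 4 G1 regulators and 4 chromatin and tubulin genes whose transcripts are abundant in proliferating cells. All 42 had a value in every cell. A filter on low values (TPM of 1 or more in 10% or more of the cells) was passed by 29 of them and by 7421 genes in all. TPM is an abundance per transcript length with an equal sum in every library, so the read depth cannot be read from it, although genes detected may still depend on depth.

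Common helper innate lymphoid progenitors (CHILPs) are the marrow precursors of helper innate lymphoid cells (ILCs). The series compared CHILPs of wild-type mice (WT, 29 libraries) with cells of the same surface phenotype obtained from pluripotent stem cells, as the series title has it (iR9, 34 libraries). Cells of both groups, of strain C57BL/6 in the labels, were sorted as CD127+ and α4β7+ cells with CD45.2, Sca1mid/- staining and no Lin, CD25 or CD135. The iR9 cells, called R9-iCHILP in the design text, also carried GFP and were collected from the marrow of Rag2-/-Il2rg-/- mice, which lack lymphocytes of their own, 4 weeks after these had received a transplant. What drives the GFP, and how many mice gave cells to either group, is not given in the sources used here. Each group was therefore treated as 1 sample of many cells. Differences come with the SD over cells, and the groups were not tested against each other.

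For 15 iR9 cell numbers, libraries with the title suffixes 2 and 3 matched each other with a Pearson r of 0.974 to 0.992 over genes, against at most 0.41 for 210 pairs with different numbers. They were averaged, which left 19 iR9 cells beside 29 WT cells. All WT titles have suffix 1, as do only 3 iR9 cells (12-1, 14-1 and 17-1), so suffix and group can hardly be told apart. The number of genes at or above 1 TPM had a median of 2938 in WT cells (range 1189 to 5939) and of 1732 in iR9 cells (1514 to 3238). Id2, which encodes an inhibitor of E proteins and marks the ILC lineage, was at TPM of at least 10 in all 48 cells. Zbtb16, which encodes the ILC precursor factor PLZF, was at that level in 12 WT cells and listed at 0 in every iR9 cell. Fewer transcripts per cell and poorer capture of transcripts cannot be told apart in such data.

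A cell enters the cycle when D cyclins with Cdk4 or Cdk6, and then E cyclins with Cdk2, inactivate the retinoblastoma family and free E2F factors to switch on the genes of DNA replication. During S phase the Mcm helicase opens DNA, PCNA holds the polymerases on it, and enzymes such as ribonucleotide reductase supply nucleotides. Later, cyclins A and B with Cdk1, Aurora and Polo kinases, kinesins and kinetochore proteins carry the cell through mitosis, and their genes are largely repressed in G0 and early G1 by the DREAM complex through CHR elements. Lymphoid progenitors divide as they expand and commit, while many mature ILCs divide rarely.

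Promoters show what the mitotic and S phase genes share beyond their names, so those of the 3 mitotic and 2 S phase genes with the largest differences between the groups among genes with an entry are printed. They cover 250 bases before to 50 bases after the start, 5′ to 3′ on the gene's strand, from RefSeq for GRCm38.p6, where 34 of the 42 genes had an entry. Capitals mark CCAAT, the CHR words TTTGAA or else TTCGAA, and for E2F the words TTCCCGC or else TTGGCGC or else TTCGCGC or else TTGCCGC, each on either strand. Runs of capitals longer than 7 bases are words that overlap, such as TTGGCGC with CCAAT in reverse or with TTCGCGC in reverse. The windows are chr11:117848987-117849286 (+) for Birc5, chr5:30666636-30666935 (+) for Cenpa, chr13:100786437-100786736 (-) for Ccnb1, chr5:138171834-138172133 (-) for Mcm7 and chr1:128359656-128359955 (-) for Mcm6.
Birc5: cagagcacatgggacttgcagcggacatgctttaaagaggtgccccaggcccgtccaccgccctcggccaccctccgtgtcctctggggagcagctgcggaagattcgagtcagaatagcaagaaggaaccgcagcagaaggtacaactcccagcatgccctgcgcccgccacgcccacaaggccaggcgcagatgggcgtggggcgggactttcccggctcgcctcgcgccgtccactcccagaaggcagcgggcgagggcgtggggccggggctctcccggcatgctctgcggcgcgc
Cenpa: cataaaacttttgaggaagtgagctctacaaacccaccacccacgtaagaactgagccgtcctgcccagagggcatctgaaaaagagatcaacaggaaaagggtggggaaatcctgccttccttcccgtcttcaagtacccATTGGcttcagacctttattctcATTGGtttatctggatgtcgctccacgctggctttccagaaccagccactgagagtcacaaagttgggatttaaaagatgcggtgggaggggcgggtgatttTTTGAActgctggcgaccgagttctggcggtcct
Ccnb1: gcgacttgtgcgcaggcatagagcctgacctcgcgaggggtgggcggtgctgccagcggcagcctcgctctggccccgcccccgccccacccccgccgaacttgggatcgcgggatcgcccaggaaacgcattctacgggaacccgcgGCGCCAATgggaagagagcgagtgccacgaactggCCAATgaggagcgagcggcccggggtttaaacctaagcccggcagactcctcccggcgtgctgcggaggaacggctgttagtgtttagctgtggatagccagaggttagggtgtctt
Mcm7: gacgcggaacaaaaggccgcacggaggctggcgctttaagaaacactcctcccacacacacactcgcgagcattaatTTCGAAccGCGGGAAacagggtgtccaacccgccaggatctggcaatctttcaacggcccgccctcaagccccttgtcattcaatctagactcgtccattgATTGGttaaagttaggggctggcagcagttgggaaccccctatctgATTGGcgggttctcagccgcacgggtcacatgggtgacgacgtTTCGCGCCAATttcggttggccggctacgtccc
Mcm6: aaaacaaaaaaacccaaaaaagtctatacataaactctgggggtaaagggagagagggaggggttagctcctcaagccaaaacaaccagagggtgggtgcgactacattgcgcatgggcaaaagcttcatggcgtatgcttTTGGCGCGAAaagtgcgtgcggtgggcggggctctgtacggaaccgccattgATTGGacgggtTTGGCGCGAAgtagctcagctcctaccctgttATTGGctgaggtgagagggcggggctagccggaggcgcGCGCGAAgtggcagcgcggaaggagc

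CCAAT stood in 15 of 17 mitotic promoters (88.2%) and 9 of 12 S phase promoters (75%), against 37.4% of all 32851 promoters of the table. The CHR words stood in 13 of 17 mitotic promoters (76.5%), in 2 of 12 S phase promoters (16.7%) and in 19.2% of all. All 13 of these mitotic promoters also held CCAAT, a combination found in 7.52% of all promoters. The E2F words went the other way, with 7 of 12 S phase promoters (58.3%), 3 of 17 mitotic promoters (17.6%) and 9.57% of all. None of the 3 G1 regulators with an entry held any of the words. Among the printed promoters, Cenpa holds a CHR word at position 17, counted from the start, and reversed CCAAT at -109 and -86, whereas Ccnb1 holds 2 CCAAT words and an E2F word. Mcm6 holds 5 E2F words, and the Birc5 window holds none of the words. A match is a string of letters and says nothing of a factor at work in these cells.

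Transcripts of the cycle were sparse in both groups and were concentrated in a few WT cells. A gene is called detected in a cell below when its TPM was at least 10. A cell was said to meet the mitotic rule with at least 10 of 20 mitotic genes detected, and the S phase rule with at least 7 of 14 S phase genes. The mitotic rule was met by 3 of 29 WT cells (10.3%, exact Clopper-Pearson 95% interval 2.19 to 27.4%) and by 0 of 19 iR9 cells (0 to 17.6%). The S phase rule was met by 6 of 29 WT cells (20.7%, 7.99 to 39.7%), which include those 3, and by 0 of 19 iR9 cells (0 to 17.6%). The intervals overlap and cover counting error only.

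WT cells 6-1 and 29-1 each had 18 of the 20 mitotic genes, with 13 and 9 of the 14 S phase genes. WT cell 8-1 had 12 mitotic and all 14 S phase genes. WT cell 23-1 had 5 and 12, and WT cell 5-1 had 6 and 8. WT cell 9-1 had 10 S phase genes and 0 mitotic genes. The 6 cells thus ranged from one with none of the 20 mitotic genes to a pair with nearly all of them. Just below the rules lay WT cell 31-1, with 2 mitotic and 5 S phase genes, WT cell 16-1 with 3 and 4, and WT cell 24-1 with 1 and 4. No iR9 cell had more than 1 mitotic gene, and the highest S phase count was 3, in iR9 cell 14-1.

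**Figure D1:**
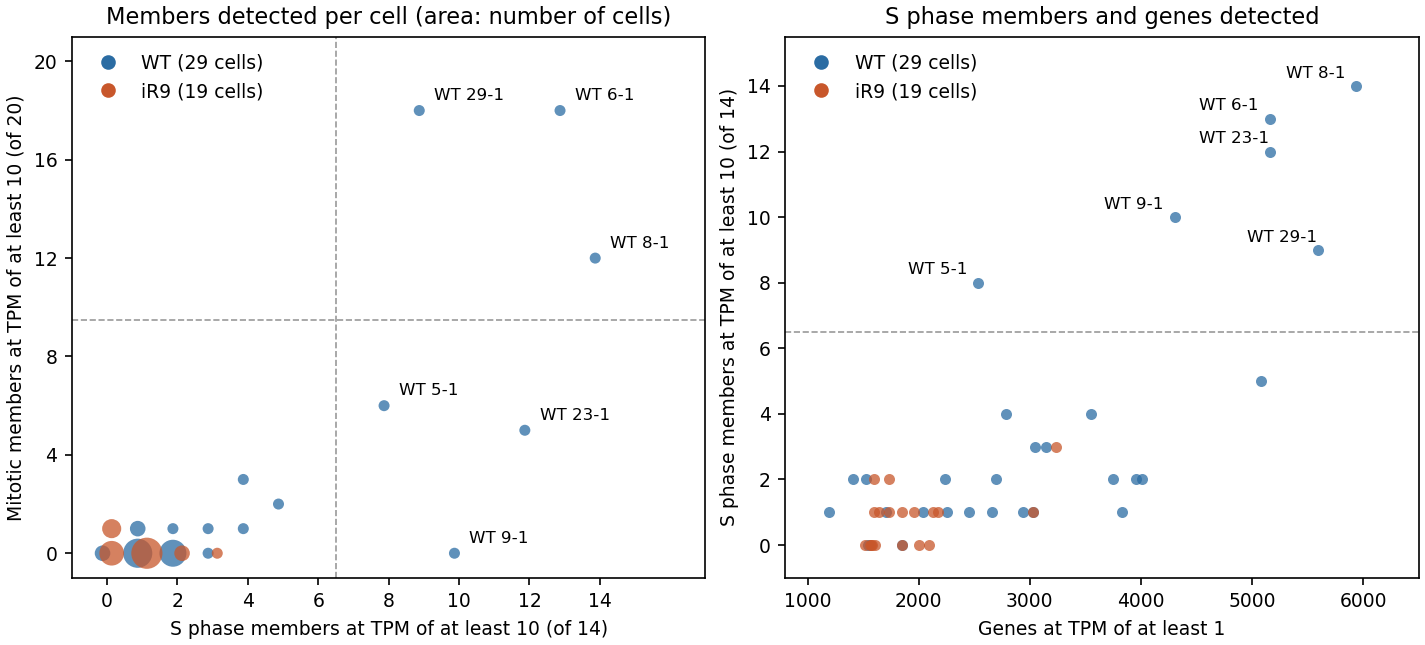
Left, number of S phase genes (x axis, of 14) and of mitotic genes (y axis, of 20) at TPM of at least 10 in each cell, with marker area showing how many cells share a position, WT drawn slightly left and iR9 slightly right, and dashed lines at the rules. Right, the S phase count against the number of genes at TPM of at least 1 in the cell. The 6 labelled WT cells stand above the S phase rule, and 5 of them have more genes than any iR9 cell.

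Most of the cells that met a rule also had many genes in all. WT cells 6-1, 8-1, 29-1, 23-1 and 9-1 had 5161, 5939, 5589, 5160 and 4303 genes at TPM of at least 1, above the iR9 maximum of 3238, while WT cell 5-1 had 2538. In the 6 cells a median of 55.8% of the genes passing the filter were detected (25.7 to 63.1%) and a median of 69.0% of the 42 genes (40.5 to 90.5%). In the 23 other WT cells these medians were 28.5% (9.999 to 44.8%) and 16.7% (2.38 to 33.3%), and in iR9 cells 17.4% (11.05 to 33.1%) and 9.52% (2.38 to 19.05%). The share of the 42 genes was above that of the genes passing the filter in 5 of the 6 cells, which were chosen on these genes, and below it in 9-1, at 40.5 against 48.4%. It was above in 3 of the 23 other WT cells (1-1, 4-1 and 16-1) and in none of the 19 iR9 cells. Only 29 of the 42 genes passed the filter themselves, so the shares are not alike and nothing is read from their order. Among WT cells that met neither rule, 31-1 had 5080 genes at TPM of at least 1 and 14 of the 42 detected, and 22-1 had 4011 and 10 of the 42, with 0 mitotic and 2 S phase genes. Over the 29 WT cells, which share a library protocol and are of unknown depth, the number of genes at TPM of at least 1 correlated with the mitotic count (Pearson r 0.65), the S phase count (0.77), the count of G1 regulators (0.70) and that of chromatin and tubulin genes (0.40).

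Across the 42 genes, 41 had a lower mean of log2(TPM + 1) in iR9 than in WT cells and 1 a higher mean, while 81.4% of the 7421 genes passing the filter had a lower mean. The difference of means was at least 1 lower for 22 of the 42 genes, while 44.5% of the 7421 genes passing the filter were lower by as much, and 14.3% of all 23393 genes. These sets are not alike, since 29 of the 42 passed the filter, among them 21 of the 22, and a gene that passed only through its WT cells had to be lower in iR9 cells. Nothing is therefore read from the counts about the 42 genes against genes in general. None of the 42 was higher by at least 1, against 5.15% of the 7421. The median difference was -1.09 for the 42 genes and -0.88 for all 7421. By role, 6 of 20 mitotic genes, 10 of 14 S phase genes, 3 of 4 G1 regulators and 3 of 4 chromatin and tubulin genes were lower by at least 1.

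Detection was compared in the same way. Of the 16 mitotic genes detected in at least 3 WT cells, 13 were detected in no iR9 cell, as were 22.7% of the 7661 genes so detected. Of the 3272 genes detected in only 3 to 6 WT cells, the range of these 16, the share was 40.0%, a background chosen after the values were seen. Among S phase genes the count was 7 of 13, and every G1 regulator and chromatin and tubulin gene was detected in at least 1 iR9 cell. Genes entered these counts by detection in WT cells, the group with more cells and more genes detected per cell. Of the 69 mitotic detections in WT cells, 10 lay outside the 6 cells that met a rule, so the genes are not separate results. The counts are therefore given without a conclusion.

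**Figure D2:**
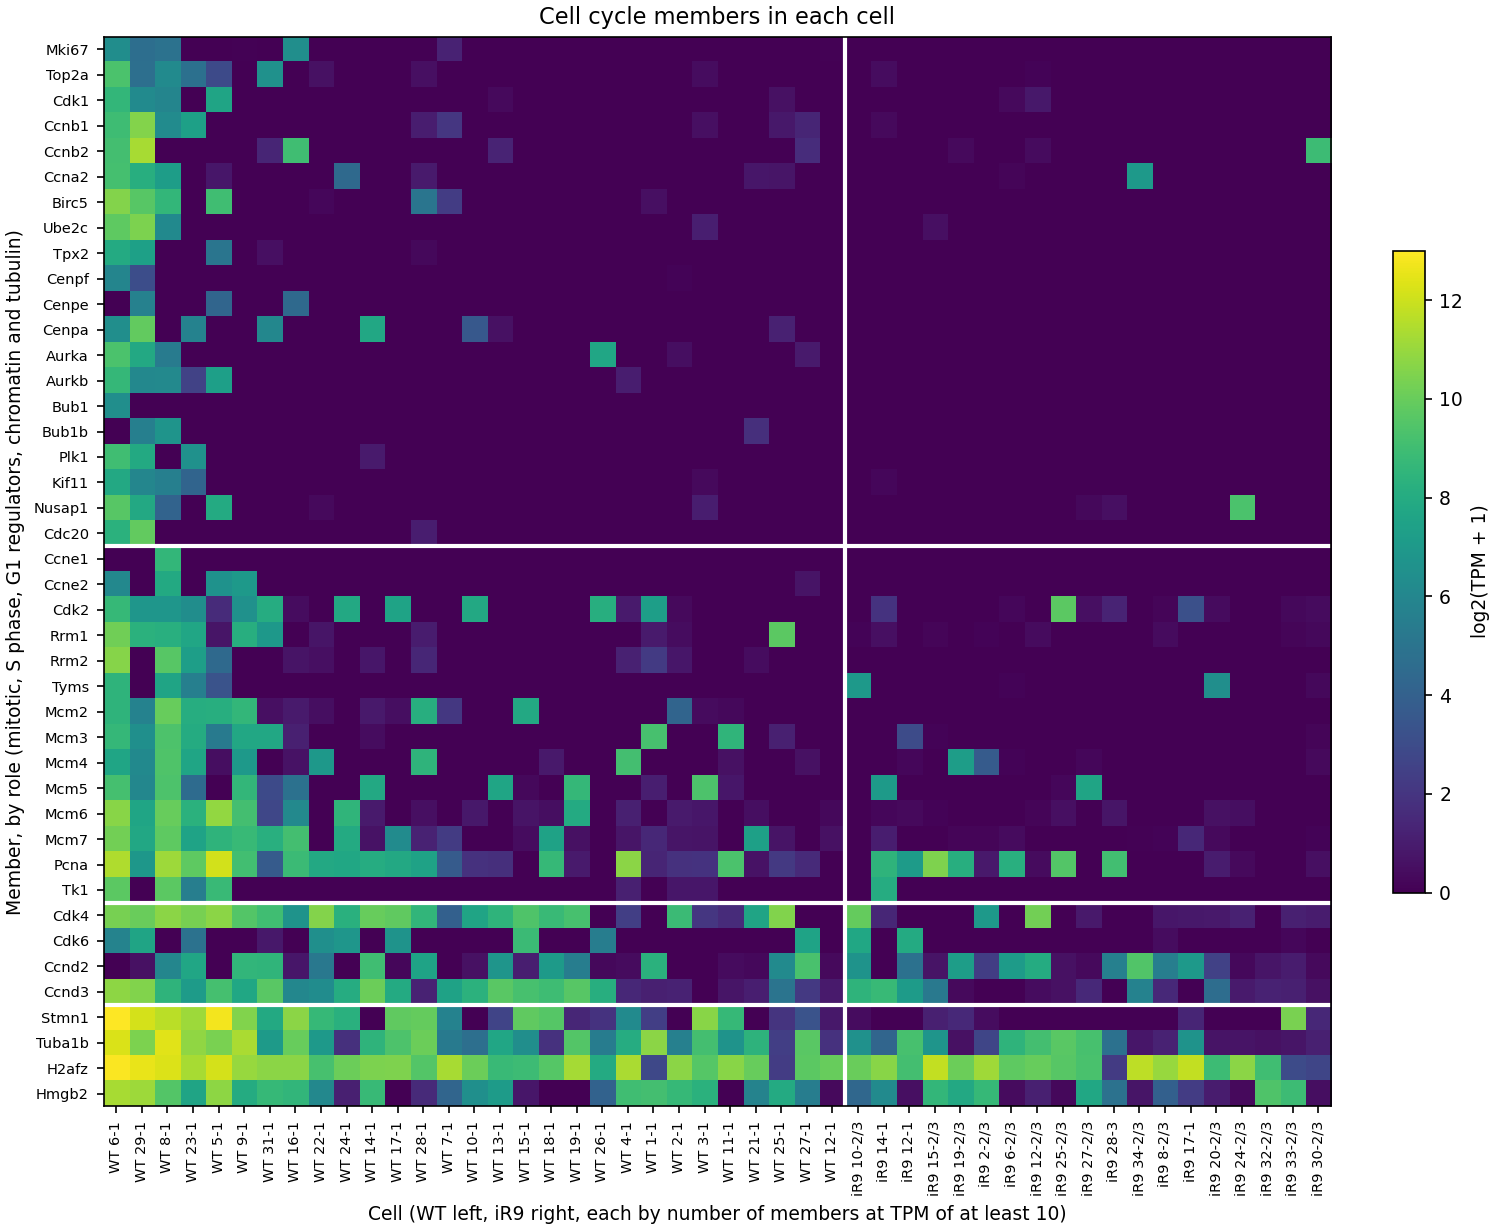
log2(TPM + 1) of each of the 42 genes (vertical axis, by role) in each cell (horizontal axis, WT left, iR9 right), with cells ordered by their number of detected genes of the 42. The 6 leftmost WT columns are the cells that met a rule, the mitotic block is nearly empty in iR9 cells, and H2afz is high in most cells of both groups.

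Mitotic genes were at 0 in most cells of both groups. The mean level over the 20 genes was 0.92 ± 1.95 (SD, n = 29 cells) in WT and 0.078 ± 0.155 (SD, n = 19 cells) in iR9 cells, on the log2(TPM + 1) scale. It ran from 0 over a median of 0.17 to 7.57 in WT cells and from 0 over 0.015 to 0.467 in iR9 cells, so 22 of 29 WT cells lie within the iR9 range and 7 above it. Without WT cell 6-1 the difference of -0.85 became -0.61. Without the 6 WT cells holding at least 3 of 9 genes of the common lymphoid progenitor list (5-1, 6-1, 7-1, 10-1, 16-1 and 29-1) it became -0.29, and 1 of the 23 WT cells left met the mitotic rule and 3 met the S phase rule. Of all pairs of a mitotic gene and a cell, 69 were detections in WT (11.9%) and 3 in iR9 cells (0.789%).

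Birc5 encodes survivin, a subunit of the chromosomal passenger complex (chromosome 11, 117849251 to 117855743, GRCm38). It was detected in 5 WT cells, at 1529 TPM in 6-1, 789 in 29-1, 511 in 5-1, 391 in 8-1 and 32.5 in 28-1, with a median of 0 over WT cells. It was listed at 0 in all 19 iR9 cells. Its mean was 1.58 ± 3.37 (SD, n = 29 cells) in WT cells, a difference of -1.58, and 4 of its 5 WT cells had met a rule. Cenpa, the histone H3 variant that marks centromeres (chromosome 5, 30666777 to 30674830), was the mitotic gene found in most WT cells, 6 of 29. It reached 944 TPM in 29-1, 221 in 14-1, 86.2 in 6-1, 63.7 in 31-1, 53.0 in 23-1 and 10.9 in 10-1, and 0 in every iR9 cell. Only 3 of these 6 cells met a rule, so Cenpa followed the other mitotic genes less closely than Birc5 did. Its mean in WT cells was 1.42 ± 2.84 (SD, n = 29 cells).

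Ccnb1 encodes cyclin B1, the partner of Cdk1 at entry into mitosis (chromosome 13, 100778650 to 100786570). It stood at 1553 TPM in 29-1, 499 in 6-1, 165 in 23-1 and 77.2 in 8-1, and at no more than 3.21 TPM in the 23 WT cells that met neither rule. In iR9 cells the highest value was 0.245 TPM. The means were 1.35 ± 2.94 (SD, n = 29 cells) and 0.017 ± 0.073 (SD, n = 19 cells). Top2a, the topoisomerase that untangles sister chromatids (chromosome 11, 98992943 to 99024189), was at 639 TPM in 6-1, 93.6 in 31-1, 73.3 in 8-1, 26.99 in 23-1 and 25.8 in 29-1, with at most 0.328 TPM in iR9 cells. Its means were 1.25 ± 2.52 (SD, n = 29 cells) and 0.028 ± 0.097 (SD, n = 19 cells), a difference of -1.22. Cyclin B1 and Top2a transcripts were thus high in the same few cells, with 31-1 as an addition for Top2a.

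The proliferation marker Mki67 was at 84.8 TPM in WT cell 16-1, 82.3 in 6-1, 29.0 in 8-1 and 25.4 in 29-1, and at 0 in all iR9 cells. The mitotic kinase Cdk1 was detected in 5-1, 6-1, 8-1 and 29-1, at 59.1 to 389 TPM, and at no more than 0.783 TPM in any other cell. Aurora kinases A and B (Aurka, Aurkb) and the kinesin Kif11 were each detected in 4 WT cells, as were Nusap1, which bundles spindle microtubules, and cyclin A2 (Ccna2). Cyclin B2 (Ccnb2), the ubiquitin-conjugating enzyme Ube2c, the spindle factor Tpx2, the kinetochore motor Cenpe and Polo-like kinase 1 (Plk1) were each found in 3. The checkpoint kinase Bub1b and Cdc20, the activator of the anaphase-promoting complex, were found in 2, and Bub1 and Cenpf, a kinetochore protein, in 1, namely 6-1. Bub1b was at 0 in 6-1, and so was Cenpe, although that cell had the highest mitotic level. A value of 0 thus says only that a gene is listed at 0 in a cell.

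The 3 mitotic detections in iR9 cells were each a different gene in a different cell. Nusap1 was at 648 TPM in iR9 cell 24-2/3, Ccnb2 at 486 TPM in 30-2/3 and Ccna2 at 128 TPM in 34-2/3, where the name 24-2/3 stands for the mean of the libraries with suffix 2 and suffix 3. Each was present at a like level in both libraries of its pair, with 681 and 615 TPM for Nusap1, 485 and 487 for Ccnb2 and 127 and 130 for Ccna2. None of these cells had a second mitotic gene at TPM of at least 1. Of 630 values of the 42 genes compared over the 15 pairs, 55 were detected in both libraries and 1 in only a single library.

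**Figure D3:**
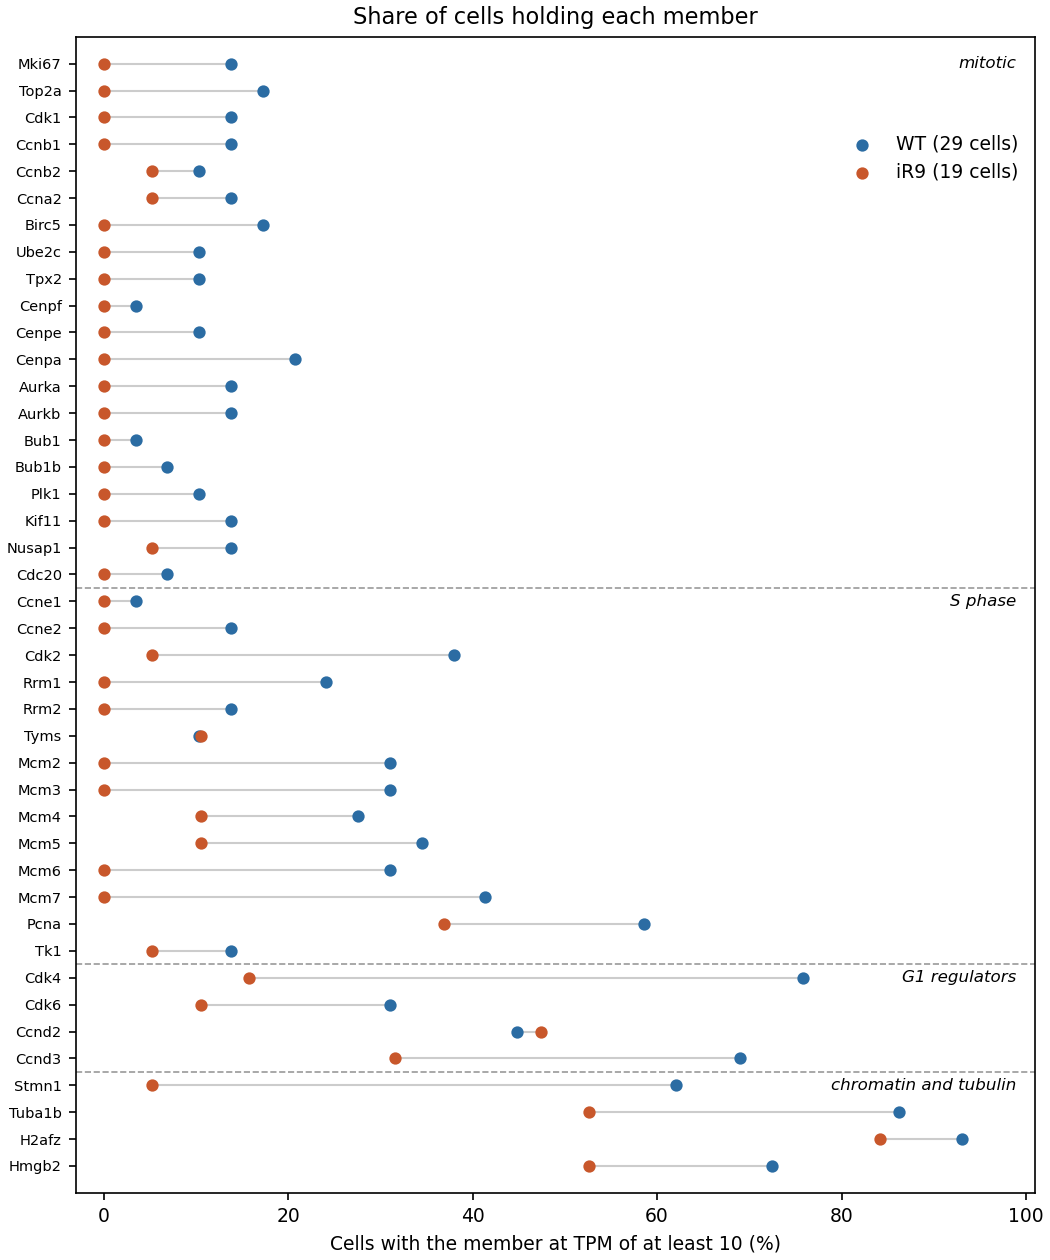
Share of cells (x axis, percent) with each of the 42 genes (y axis, by role) at TPM of at least 10, in blue for 29 WT and in orange for 19 iR9 cells, joined by a grey line. Most mitotic genes sit at 0 in iR9 cells and at no more than 20.7% in WT cells, and the widest gaps are those of Cdk4 and Stmn1.

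S phase genes were found in more cells than mitotic genes. Their mean level was 2.31 ± 2.41 (SD, n = 29 cells) in WT and 0.54 ± 0.53 (SD, n = 19 cells) in iR9 cells. It ran from 0.062 over a median of 1.39 to 9.11 in WT cells and from 0 over 0.51 to 1.95 in iR9 cells. The groups overlap between 0.062 and 1.95, with 10 WT cells above the highest iR9 cell and 5 iR9 cells below the lowest WT cell. At least 1 S phase gene was detected in 27 of 29 WT and 11 of 19 iR9 cells, and detections made up 26.6% of gene and cell pairs in WT and 5.64% in iR9 cells.

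Mcm7, Mcm6, Mcm2 and Mcm3, genes of the Mcm2 to Mcm7 helicase that is loaded at replication origins, showed the largest differences of this role. Mcm7 (chromosome 5, 138164583 to 138172422) was detected in 12 WT cells, from 76.6 TPM in 17-1 to 1208 in 6-1, with a WT median of 1.37 TPM. Its highest iR9 value was 1.70 TPM. The means were 3.76 ± 3.93 (SD, n = 29 cells) and 0.20 ± 0.39 (SD, n = 19 cells), a difference of -3.56. Mcm6 (chromosome 1, 128331590 to 128359664) reached 1893 TPM in 5-1, 1626 in 6-1 and 1007 in 8-1, was detected in 9 WT cells, and had a median of 0.721 TPM in WT cells. No iR9 cell had more than 0.673 TPM of it, and the difference was -2.90, from 3.07 ± 4.03 (SD, n = 29 cells) to 0.17 ± 0.25 (SD, n = 19 cells). Both genes were detected in all 6 cells that met a rule.

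Mcm2 (chromosome 6, 88883474 to 88898780) was at 0 in all 19 iR9 cells. In WT cells it was detected in 9, at 1007 TPM in 8-1 and 17.5 to 393 TPM in the other 8, with a median of 0.379 TPM and a mean of 2.60 ± 3.62 (SD, n = 29 cells). Mcm3 (chromosome 1, 20802968 to 20820312) was also detected in 9 WT cells, at up to 665 TPM, with a median of 0, and at no more than 6.91 TPM in iR9 cells. Its means were 2.55 ± 3.74 (SD, n = 29 cells) and 0.18 ± 0.68 (SD, n = 19 cells), a difference of -2.37. Mcm4 and Mcm5 were found in 8 and 10 WT cells and in 2 iR9 cells each. The helicase is a ring of all 6 proteins, yet in cells that met neither rule a single subunit was often found alone. WT cell 15-1, for example, had 228 TPM of Mcm2 and no detection of the other 5.

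Pcna, the sliding clamp of replication that also serves DNA repair, was the S phase gene found most widely, in 17 WT and 7 iR9 cells. In iR9 cells it ran to 1444 TPM, in 15-2/3, and in WT cells to 4449 TPM, in 5-1. The WT and iR9 medians were 116 and 0.465 TPM. The subunits of ribonucleotide reductase, Rrm1 and Rrm2, were detected in 7 and 4 WT cells and in no iR9 cell. Thymidylate synthase (Tyms) was found in 3 WT and 2 iR9 cells, and thymidine kinase 1 (Tk1) in 4 and 1. The E cyclins, which drive entry into S phase, were found in few cells. Ccne2 was detected in 5-1, 6-1, 8-1 and 9-1, and Ccne1 at 391 TPM in 8-1 alone, while neither was above 0 in any iR9 cell. Cdk2, their partner, was found in 11 WT cells and in iR9 cell 25-2/3 at 836 TPM.

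S phase detections in iR9 cells came to 15, in 11 cells. The iR9 cell 14-1 had Pcna, Mcm5 and Tk1 at 344, 133 and 266 TPM. The iR9 cells 19-2/3 and 25-2/3 had 2 genes each, Pcna with Mcm4 and Pcna with Cdk2. In each of the 8 remaining cells a single S phase gene was found. In the 23 WT cells that met neither rule, 42 S phase and 10 mitotic detections remained, and 12 of 20 mitotic genes were found in none of them.

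The G1 regulators Cdk4 and Ccnd3 were found in most WT cells, also among the 23 that met neither rule, where 16 and 14 had them. The mean level over all 4 G1 regulators was 4.70 ± 2.30 (SD, n = 29 cells) in WT and 2.24 ± 1.97 (SD, n = 19 cells) in iR9 cells. It ran from 0.32 over a median of 5.45 to 7.53 in WT cells and from 0.29 over 1.88 to 8.196 in iR9 cells. The iR9 range spans that of WT cells, and the highest level of any cell was that of iR9 cell 10-2/3. Cdk4, the D cyclin kinase (chromosome 10, 127063534 to 127067920), was detected in 22 of 29 WT cells, with a range of 0 to 1724 TPM and a median of 454. It was detected in 3 of 19 iR9 cells, at 1197 TPM in 12-2/3, 973 in 10-2/3 and 131 in 2-2/3, with a median of 0.777. The means were 7.07 ± 3.86 (SD, n = 29 cells) and 1.86 ± 3.30 (SD, n = 19 cells), a difference of -5.22. Of these 3 iR9 cells, 12-2/3 and 10-2/3 were above the WT median.

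Ccnd3, cyclin D3, the D cyclin of lymphoid cells (chromosome 17, 47505051 to 47599691), was at 0 to 1742 TPM in WT cells, with a median of 212 and 20 detections. In iR9 cells it had 6 detections, from 24.2 TPM in 20-2/3 to 433 in 14-1, and a median of 1.23. The means were 6.15 ± 3.68 (SD, n = 29 cells) and 2.54 ± 3.06 (SD, n = 19 cells). Cdk6 (chromosome 5, 3341485 to 3531008) was found in 9 WT cells, at up to 467 TPM in 15-1, and in iR9 cells 12-1 and 10-2/3 at 242 and 210 TPM. Its difference of -1.25 turned to 0.54 when only the 3 iR9 cells of suffix 1 were used, of which 12-1 is one. Ccnd2, cyclin D2 (chromosome 6, 127125162 to 127152193), was the only one of the 42 whose iR9 mean was not below the WT mean. It was detected in 13 WT cells, with a median of 0.713 and a maximum of 622 TPM, and in 9 iR9 cells, with a median of 4.72 and a maximum of 700 TPM in 34-2/3. The difference of 0.24, from 3.47 ± 3.69 (SD, n = 29 cells) to 3.71 ± 3.25 (SD, n = 19 cells), is far smaller than the spread, and its sign was negative in 5 of 12 alternatives. No direction is therefore given for Ccnd2. Among the 6 WT cells that met a rule, Ccnd2 was at 0 in 5-1 and 6-1 and at 0.48 TPM in 29-1, where Ccnd3 was at 577, 1742 and 1473 TPM.

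The chromatin and tubulin genes had the highest mean level of the 4 roles in both groups. It was 7.55 ± 2.44 (SD, n = 29 cells) in WT and 4.62 ± 1.41 (SD, n = 19 cells) in iR9 cells, with ranges of 3.25 to 12.36 and 1.45 to 7.09 and medians of 6.91 and 4.88. The ranges overlap from 3.25 to 7.09. Stmn1, stathmin, which destabilises microtubules (chromosome 4, 134468320 to 134473843), had the largest difference of all 42 genes, -5.73. It was detected in 18 WT cells, with a range of 0 to 8192 TPM and a median of 300. In iR9 cells it was detected in 33-2/3 alone, at 1348 TPM, and the iR9 median was 0. The means were 6.61 ± 4.55 (SD, n = 29 cells) and 0.88 ± 2.37 (SD, n = 19 cells).

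Tuba1b, an alpha tubulin (chromosome 15, 98931425 to 98934565), ran from 2.51 over a median of 342 to 5536 TPM in WT cells and from 0.482 over 17.6 to 808 TPM in iR9 cells, a difference of -3.34. It was detected in 25 WT and 10 iR9 cells, with means of 7.76 ± 3.12 (SD, n = 29 cells) and 4.42 ± 3.61 (SD, n = 19 cells). Other alpha tubulins have near-identical coding sequence, and how reads that match several genes were assigned is not given in the sources used here, so this value is uncertain. The same holds for H2afz and Hmgb2, which have processed copies in the genome. Hmgb2, a DNA-bending protein high in dividing cells (chromosome 8, 57511907 to 57515999), was detected in 21 WT and 10 iR9 cells, with medians of 138 and 14.96 TPM and maxima of 2493 and 694 TPM. Its means were 5.88 ± 3.81 (SD, n = 29 cells) and 4.10 ± 3.55 (SD, n = 19 cells). H2afz, the histone variant H2A.Z (chromosome 3, 137864487 to 137866922), was found in 27 WT and 16 iR9 cells, with medians of 1386 and 1016 TPM and maxima of 7801 and 3574 TPM. Its difference of -0.86, from 9.95 ± 2.35 (SD, n = 29 cells) to 9.08 ± 3.01 (SD, n = 19 cells), was close to the median of all genes, and it was positive in 1 of 12 alternatives. All 4 genes were detected in each of the 6 cells that met a rule, and Stmn1 was at 1488 to 8192 TPM there against at most 1682 TPM in the 23 other WT cells.

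**Figure D4:**
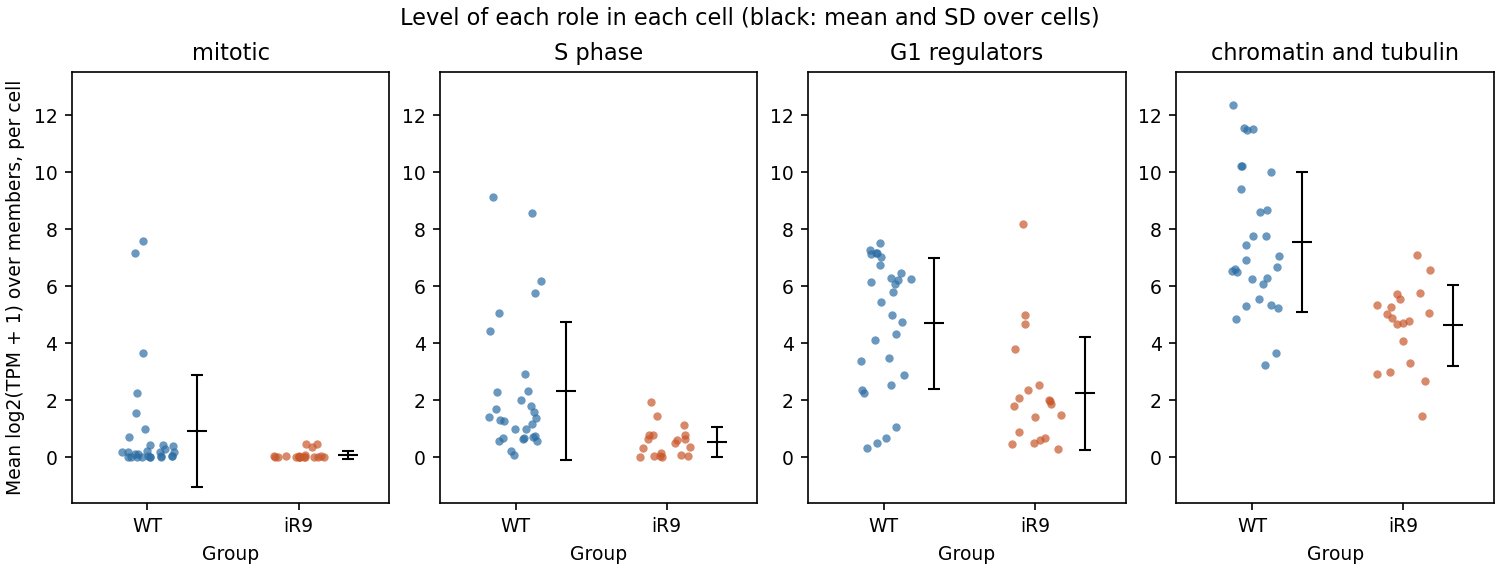
Mean log2(TPM + 1) over the genes of each role (y axis) in each WT and iR9 cell (points, spread sideways at random), with the mean and SD over cells in black. The mitotic and S phase panels show a few high WT cells above a shared low range, while the G1 and the chromatin and tubulin panels show lower iR9 means with overlapping ranges.

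Genes detected differed between the groups, so the levels were also compared in the 16 WT and 19 iR9 cells between 1514 and 3238 genes, the range both groups cover. There 0 of 16 WT cells met the mitotic rule and 1, cell 5-1, met the S phase rule. Of the 42 genes, 11 were lower by at least 1 in iR9 cells, against 26.3% of the 7421 genes and 8.72% of all 23393. All 11 are among the 29 that passed the filter. The median difference was -0.50 for the 42 genes and -0.37 for all. By role the differences of the mean level were -0.27 for mitotic genes, -0.77 for S phase genes, -1.56 for G1 regulators and -2.43 for chromatin and tubulin genes. The largest single differences there were those of Stmn1 (-5.07), Cdk4 (-3.88), Tuba1b (-3.05), Ccnd3 (-2.48) and Mcm7 (-2.20), while Ccnd2 was higher by 1.04. Over all cells the differences by role had been -0.85, -1.77, -2.46 and -2.93, so those of mitotic and S phase genes shrank most in proportion. With only the 3 iR9 cells of suffix 1, the differences by role were -0.91, -1.30, -1.54 and -2.37 in the same order.

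Over the 29 WT cells, mitotic genes varied with each other (median Pearson r of 190 pairs of genes 0.67) and S phase genes with each other (0.53 over 91 pairs), and mitotic with S phase genes less (0.43 over 280 pairs). G1 regulators had a median r of 0.24 with mitotic and 0.17 with S phase genes. These values describe cells that share a processing and differ in genes detected, which correlates with every role. The mean mitotic and S phase levels had an r of 0.73. Among the genes that are no members, the profile most like the mean mitotic level was that of Kif22, a chromosome-arm kinesin (r 0.92), with Fbxo30 (0.92), Ckap2l (0.91), Amz2 (0.89), Tor1b (0.89), Plxdc2 (0.88), Hist1h2bj (0.87) and Cenpl (0.87). Fbxo30 was detected in only 2 WT cells and in 3 iR9 cells, Amz2 in 4 and 2, and Hist1h2bj in 4 and 1. Tor1b and Plxdc2 were each detected in 3 WT cells and no iR9 cell, so these values of r rest on few cells. Kif22, Ckap2l and Cenpl were each detected in 5 WT cells, all of which met a rule. This follows in part from their choice, since the mitotic level and the mitotic rule rest on the same genes in the same cells. The profiles most like the S phase level were those of Cenpk (r 0.91), the nucleoside transporter Slc29a1 (0.89), the condensin subunit Smc2 (0.88), the licensing factor Cdt1 (0.87), Pold1, a subunit of DNA polymerase delta (0.87), Nt5dc2 (0.87), Uck2 (0.87) and the maintenance methyltransferase Dnmt1 (0.86).

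Other genes of the cycle, on lists beyond the 42, were also mostly lower in iR9 cells. Of 45 other replication genes, 43 were lower and 2 higher in mean in iR9 cells, 23 of them lower by at least 1, with a median of -1.001, and 32 of the 45 passed the filter. The shares of all genes given above, 81.4% lower and 44.5% lower by at least 1 of those passing the filter and 14.3% of all without it, hold beside these counts too. The largest differences were those of Rpa1, a subunit of the single-strand binding protein (-4.14), the flap nuclease Fen1 (-3.30) and the chromatin assembly subunit Chaf1b (-2.99). Of 50 other mitotic genes, 49 were lower and 1 higher, 15 lower by at least 1 and 22 passing the filter, with a median of -0.76, led by the tubulin Tubb5 (-3.90) and the Cdk subunits Cks1b (-2.65) and Cks2 (-2.39). Of these 50, 36 were detected in at least 3 WT cells and 26 of the 36 in no iR9 cell, beside 22.7% of all genes detected in at least 3 WT cells and 40.0% of those in 3 to 6. The limits given above for counts of detection hold here too. Of 24 genes on a list of E2F, DREAM and other regulators, among them Myb, Cdk7 and Ccnh, 19 were lower and 3 higher. In this list 9 were lower by at least 1 and 12 passed the filter, with a median of -0.77. The largest differences were those of E2f4 (-3.30), Myb (-2.86) and Tfdp1 (-2.82). These counts too stand beside the shares of all genes given above, and nothing is read from them. In the 6 cells that met a rule, between 25 and 42 of the 45 replication genes were detected, against 2 to 13 in the other WT cells and 0 to 8 in iR9 cells. For the 50 mitotic genes these ranges were 9 to 41, 1 to 8 and 0 to 5. The 6 cells were chosen on mitotic and S phase genes, and all but 5-1 had more genes at TPM of at least 1 than any iR9 cell. Their median share of detected genes among those passing the filter was 55.8%, against 28.5% in the other WT cells and 17.4% in iR9 cells. WT cell 9-1, with 0 of the 20 mitotic genes, had 27 of the 45 replication genes and 9 of the 50 other mitotic genes.

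Inhibitors of the cycle differed in both directions. The list of 18 CDK inhibitors and antiproliferative genes also holds Ccnd3, an activator and one of the 42, which was set aside here. Of the 17 others, 11 were lower, 4 higher and 2 without a value above 0 in any cell, 4 lower and 2 higher by at least 1, with a median of -0.20. Of the 7421 genes passing the filter, 81.4% were lower, 44.5% lower by at least 1 and 5.15% higher by at least 1. Without the filter, 14.3% of all 23393 genes were lower by at least 1. The sets are not alike, so nothing is read from these counts. With Ccnd3 the median was -0.37. The stress-induced genes Gadd45a and Gadd45b were higher by 1.76 and 1.28, on 5 against 2 and 3 against 2 cells with a detection (iR9 and WT). Btg1, an antiproliferative factor of resting lymphocytes, was detected in 25 WT cells and 17 iR9 cells, with medians of 127 and 240 TPM and a difference of 0.82. Cdkn1a and Cdkn1b, encoding p21 and p27, differed by -0.66 and -0.53, and Cdkn2c by -1.25, with 5 WT cells and no iR9 cell. Of all genes detected in 3 to 6 WT cells, 40.0% were likewise detected in no iR9 cell.

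The 6 WT cells that met a rule held transcripts of different lineages. Id2 was below the WT median of 5121 TPM in all 6, at 15.6 TPM in 5-1, 63.6 in 6-1, 216 in 29-1, 710 in 9-1, 1117 in 8-1 and 2365 in 23-1. Il7r, encoding CD127, was detected in all 6, at 23.5 to 202 TPM. Gata3 and Tcf7, factors of early ILC and T cells, were detected in 5 of 6, all but 5-1, and in 24 and 22 of all 29 WT cells. Zbtb16 was detected in 6-1 and 23-1 only, at 36.4 and 37.6 TPM, so 2 of its 12 WT cells met a rule. Pdcd1, which encodes PD-1 and marks ILC precursors, was detected in 3 of the 6 and in 13 WT cells. Myb, a factor of immature blood cells, was detected in all 6, at 11.6 to 189 TPM, in 5 of the 23 other WT cells, and in no iR9 cell.

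WT cells 6-1, 29-1 and 5-1 had Dntt, the terminal transferase of early lymphoid cells, at 2137, 1586 and 1121 TPM. Dntt was detected in only 4 WT cells, and 3 of them met a rule. The fourth, 16-1, had 3 mitotic genes, Mki67, Ccnb2 and Cenpe. Cell 6-1 also had Rag1 and Rag2 at 22.7 and 127 TPM, with Gata3 at 450, Pdcd1 at 631, Bcl11b at 151 and the kinase Lck at 1753 TPM. Cell 29-1 had Rag2 at 85.9, Ly6d at 10269, Tcf7 at 2334 and Tox at 307 TPM. Cell 5-1 had Ly6d at 47378 TPM, the plasmacytoid dendritic cell genes Siglech, Irf8 and Cox6a2 at 1704, 2043 and 7070 TPM, and Flt3 at 1367 TPM, although Flt3 encodes the CD135 on which cells were excluded. Tcf7 and Gata3 were at 2.06 and 1.51 TPM in that cell. On the list of 9 common lymphoid progenitor genes the 6 cells had 1 to 5 detected and a summed TPM of 144 to 49924, the 23 other WT cells 0 to 4 and 3.36 to 21833, and the iR9 cells 0 to 1 and 0 to 97.7. Dntt, Rag1, Rag2, Flt3, Ly6d and Ebf1 were at 0 in every iR9 cell. Of 9 listed B cell genes, at most 1 was detected in any WT cell and at most 2 in any iR9 cell. Cd79b, a signalling chain of the B cell receptor, was detected in 7 WT cells, at 252 TPM in 8-1 and up to 1229 TPM, and in no iR9 cell. The surrogate light chain genes Vpreb1 and Vpreb2 were each detected in 1 iR9 cell, at 1450 and 98.9 TPM, and Cd79a and Pax5 were at 0 in all cells. The part of these lineage genes in the cycle differences was not tested. The cells left out above for their common lymphoid progenitor genes include 5-1, 6-1 and 29-1, which met a rule. A smaller difference without them follows from that and says nothing of the lineage genes.

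WT cells 8-1, 23-1 and 9-1 had no Dntt, Rag1 or Rag2. Cell 8-1, with all 14 S phase genes, had Id2 at 1117, Gata3 at 495, Rora at 582, Cxcr6 at 430 and the interleukin 25 receptor Il17rb at 395 TPM. Cell 23-1 had Klrd1 at 1199, Eomes at 556, Ncr1 at 689 and Tbx21 at 276 TPM, all genes of natural killer cells and ILC1, beside Tcf7 at 1056 and Ltb at 3897 TPM. It also had Hba-a2, an alpha globin, at 2006 TPM. Cell 9-1 had Klrd1 at 4610, Nkg7 at 3338, Gzma at 1310 and Eomes at 309 TPM, while Ncr1 and Tbx21 were at 0.472 and 0.195 TPM there. Nkg7 is not particular to this cell, as it was detected in 20 WT cells, among them 5 of the 6 that met a rule. Of the 11 listed genes of ILC1 and natural killer cells, 8 were detected in 23-1 and 6 in 9-1, against 0 to 5 in the 23 other WT cells and 0 to 1 in iR9 cells. Klrd1 and Eomes were each detected in 4 WT cells, of which 2 met a rule. In mast cell and myeloid lists the 6 cells had at most 1 and 2 genes detected, with Cpa3 at 1018 TPM in 6-1, 3212 in 29-1 and 907 in 8-1 as the mast cell gene, and Tpsb2, Tpsab1 and Mcpt8 at 0 in all 6.

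**Figure D5:**
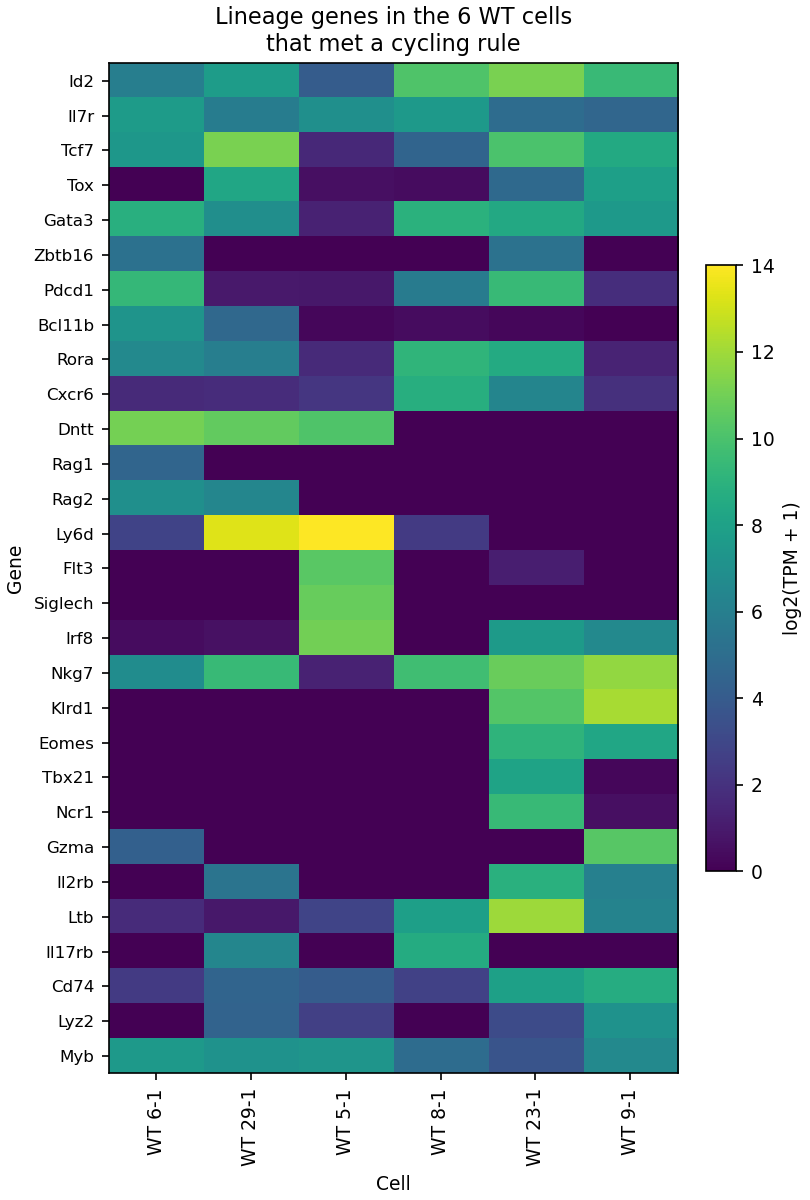
log2(TPM + 1) of 29 lineage genes (vertical axis) in the 6 WT cells that met a rule (horizontal axis). Dntt is high in 6-1, 29-1 and 5-1 only, Siglech in 5-1 only, and Klrd1 and Eomes in 23-1 and 9-1 only, while Id2, Il7r and Myb are above 0 in all 6.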

How the data were processed

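Per the labels' protocols, whole-transcriptome amplification of polyA RNA from single sorted cells preceded transposase-based library making. The authors deposited TPM per gene symbol for 63 libraries in 23420 rows, of which 27 rows with a date in place of a symbol were left out here. The submitters' processing notes name bcl2fastq 2.16.0.10, HISAT2 2.1.0, SAMtools 0.1.19, StringTie 1.3.4 and mm10, with no role or order. Use of strand is not given in the sources used here. Depth is unknown.

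Tools were pandas 2.3.3, SciPy 1.17.1 and NumPy 2.4.6 under Python 3.11.15, with matplotlib 3.10.9 for figures. Levels are means of log2(TPM + 1), so differences understate the change of low genes. Coordinates are from GENCODE M21 on GRCm38. All 42 genes are accounted for. Given in full were, by rule, the 4 genes with the largest difference of the mitotic and of the S phase role and all genes of the smaller roles, with the 8 most similar other genes for each of these 2 levels and the 3 largest differences of the other cycle lists. The genes and lists were chosen with earlier results of these data known. Values of 2 listed marker genes are not reported here, while the list counts include them. Only the function for the difference of group means was run on simulated data, with some genes raised by a known factor. Chosen after seeing the data were counts in the WT cells that met neither rule the backgrounds of genes found in 3 to 6 WT cells and of all genes without the filter, and the count of inhibitors without Ccnd3.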

Additional observations from a re-analysis of the deposited data

How the results depend on the processing

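No paired analysis was possible because no result rests on a test. Of 295 values recomputed under the alternatives, 289 moved by less than the spread over cells, the interval of a share or 1.5 times a count, and 283 of these kept their sign. The other 6 changed sign, 5 for Ccnd2 and 1 for H2afz. The spread can exceed the difference itself, as for mitotic genes, with a difference of -0.85 and an SD of 1.95 in WT cells. The mitotic difference of -0.27 in the shared range thus counted as a small move. These counts therefore do not show that a difference is stable. The number of the 42 genes lower in iR9 cells by at least 1 was 22 and became 11 in the shared range of genes detected, 13 with a pseudocount of 10 and 8 with a filter of 1 TPM in 30% of the cells, which leaves fewer genes to count. In the shared range 0 of 16 WT cells met the mitotic rule and 1 the S phase rule, since 13 WT cells lie outside it. Cdk6 turned to 0.54 with the iR9 cells of suffix 1 only, and the cause was not tested. Quantile normalization took the G1 difference to -1.22 and that of chromatin and tubulin genes to -1.93, with the median of all genes at -0.12. The difference of Ccnd2 ran from -0.58 without cells with common lymphoid progenitor markers to 1.83 after quantile normalization, and H2afz was at 0.58 with suffix 1 only. Leaving out each cell in turn gave -0.88 to -0.61 for mitotic genes, -1.85 to -1.53 for S phase genes, -2.79 to -2.35 for G1 regulators, -3.08 to -2.75 for chromatin and tubulin genes and 19 to 24 genes lower. With genes counted at TPM of at least 1, 3 and 7 WT cells met the mitotic and the S phase rule, and at TPM of at least 50, 2 and 5 did. With 25% of the genes of a role asked for, 5 and 9 WT cells met the rules, and with 75%, 2 and 3 did. No iR9 cell met either rule under these settings. Read depth is unknown, so the precision of low values cannot be given.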

Other observations

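Of 12 ILC3 and lymphoid tissue inducer genes, the 6 WT cells that met a rule had 0 to 2 detected, the 23 other WT cells 0 to 7 and the iR9 cells 1 to 9. Of 9 ILC2 genes they had 0 to 4, as did the other WT cells, against 0 to 3 in iR9 cells. Of 16 ILC progenitor genes they had 4 to 15, against 2 to 15 in the other WT cells and 3 to 12 in iR9 cells. Of 8 plasmacytoid dendritic cell genes they had 1 to 5, against 0 to 3 in the other WT cells and 0 to 2 in iR9 cells. WT cell 23-1 had 4 of 8 erythroid genes, where the other WT cells had at most 2 and the iR9 cells at most 3. Cd27, a receptor of the tumour necrosis factor family found on lymphoid progenitors, was detected in 5 of the 6 cells, in 14 of all 29 WT cells and in no iR9 cell. Among widely used genes, Actb was detected in all 48 cells, while Hprt was detected in 18 WT and 5 iR9 cells and Pgk1 in 15 and 3.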
